A study of Mus musculus with 4 samples.

Results

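The 10 genes described here encode costimulatory receptors and ligands of the TNF superfamily: the receptors Tnfrsf4, Tnfrsf9, Tnfrsf18 and Cd27, and the ligands Cd40lg, Fasl, Tnfsf8, Tnfsf11, Tnfsf14 and Tnfsf10. They were chosen by name, and all 10 were found through the RefSeq accessions of the array's probes, among 18539 genes that could be named in this way. Together they were measured by 13 probes, 12 of which were well above background on all 4 arrays. Tnfrsf9, Fasl and Tnfsf11 had 2 probes each, and the brighter one is used unless the other is mentioned.

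RNA came from Th2 cells that were grown from splenic CD4 T cells of female C57BL/6J mice, whose age the labels do not give. Every culture began with 2 days on plate-bound antibody to TCR-β (3 µg/ml) together with antibody to CD28 (1 µg/ml), followed by 3 days on a fresh plate. IL-4 was present throughout at 10 ng/ml, as was IL-2 at 2.5 ng/ml. The 4 conditions were control Th2 cells at rest, SH-2251-treated Th2 cells at rest, and the same 2 kinds of culture restimulated for 4 h on immobilized anti-TCR-β, with 1 array for each. SH-2251, a small molecule of the thioamide kind developed against the production of IL-5, was present during both phases of the culture. The labels give its concentration as 1 µM in the first phase and 1 mM in the second, whereas the study's methods give a single, lower dose for experiments that do not state another. The labels name sorted CD4 T cells as the starting cells, while the methods name naive CD4 T cells and add an anti-IFN-γ antibody to the Th2 culture. How many mice or cultures went into a sample is not given in the sources used here.

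Members of the TNF receptor superfamily carry no enzyme of their own. When a ligand, which usually acts as a trimer on the surface of another cell, draws them together, most of them recruit TRAF adaptor proteins and switch on NF-κB, while Fas and its relatives with a death domain can start apoptosis. In T cells the costimulatory members act after the T cell receptor (TCR) and CD28: they prolong the division, survival and memory of cells that have met antigen. OX40 (Tnfrsf4) is known for its part in Th2 responses, and CD40 ligand (Cd40lg) is the signal by which helper T cells license B cells and dendritic cells.

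RNA was labelled with 1 dye, and 41174 probes were read on each array. The 4 arrays lay on 1 slide and were read in 1 scan. Levels below are log2 intensities from which the 75th percentile of their array was subtracted, so that a level of 0 equals that percentile and each unit is a doubling, and a difference is taken within 1 probe, since levels of different probes cannot be compared. With 1 array for each condition no test was possible and precision is limited by how few arrays there are; "higher" and "lower" compare these 4 samples only. The technical SD beside a difference was computed from the error that the scanner software assigns to each spot, and leaves out the spread between cultures. Its median over all genes was 0.204 for either SH-2251 comparison. Over all genes the median differences lay between -0.064 and -0.051 in the 4 comparisons.

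All 6 genes of a T cell marker list (such as Cd3d and Lck) and all 6 of a Th2 list (such as Gata3 and Il4) were well above background on every array. The summed linear level of the Th2 list was 229.4 in resting control and 208.9 in resting treated cells. After restimulation it was 524.9 and 412.0. With SH-2251, Il5 differed by -3.86 at rest and -3.01 after restimulation, and Il13 by -1.32 and -0.57. In the same order Gata3 differed by -0.17 and -0.033, Il4 by -0.10 and -0.23, Il4ra by -0.11 and 0.033, and Ptgdr2 by -0.55 and 0.16. Of other cells that could be present, the defining markers Lyz2, Itgam and Itgax (myeloid and dendritic cells), Ncr1 and Klrb1c (NK cells), and Pax5 (B cells) were not well above background on any array. Other myeloid and dendritic cell markers were measured: 4 of 7 (Csf1r, Cd14, Adgre1 and Flt3) were well above background on all 4 arrays, and the summed linear level of that list lay between 2.50 and 3.04. Of the B cell markers 5 of 6 were above it on all 4 arrays, and the summed linear level of that list was 4.66 in resting control, 5.37 in resting SH-2251-treated, 3.74 in restimulated control and 5.78 in restimulated SH-2251-treated cells. For the CD8 T and NK cell list the sums were 1.99, 2.11, 4.64 and 4.18 in the same order. The red cell list, of which only Hba-a1 was well above background on all 4 arrays, summed to 0.365, 0.712, 0.232 and 0.639, so that its sum was higher with SH-2251 in both states. The regulatory T cell list, which includes genes that activated T cells also use, had its lowest sum in resting treated cells and its highest, 101.6, in restimulated control cells, with 27.7 in resting control and 61.1 in restimulated treated cells. Its genes did not move together with SH-2251. At rest Il10 differed by -1.71, Ctla4 by -1.34, Il2ra by -0.36, Ikzf2 by 1.26 and Foxp3 by 0.095. After restimulation Il10 differed by -0.98, Ctla4 by -1.12 and Il2ra by 0.039, while Ikzf2 was higher by at least 1.40 and Foxp3 by at least 0.71. Restimulation markers (Egr1, Egr2, Nr4a1, Il2, Ifng, Cd69 and Myc) summed to 17.1 and 13.8 at rest, and to 215.0 and 200.7 after restimulation. The restimulated sums hide differences in both directions with SH-2251. In that state Ifng differed by -1.64, Il2 by -1.53, Egr2 by -0.77 and Myc by -0.26. Egr1 differed by 0.053, Nr4a1 by 0.30 and Cd69 by 0.37. Myc rose little after restimulation, by 0.053 in control and 0.25 in treated cells. The part that other cells had in the results below was not tested, and in RNA from whole cultures fewer cells of a type and less RNA per cell cannot be told apart.

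**Figure D1:**
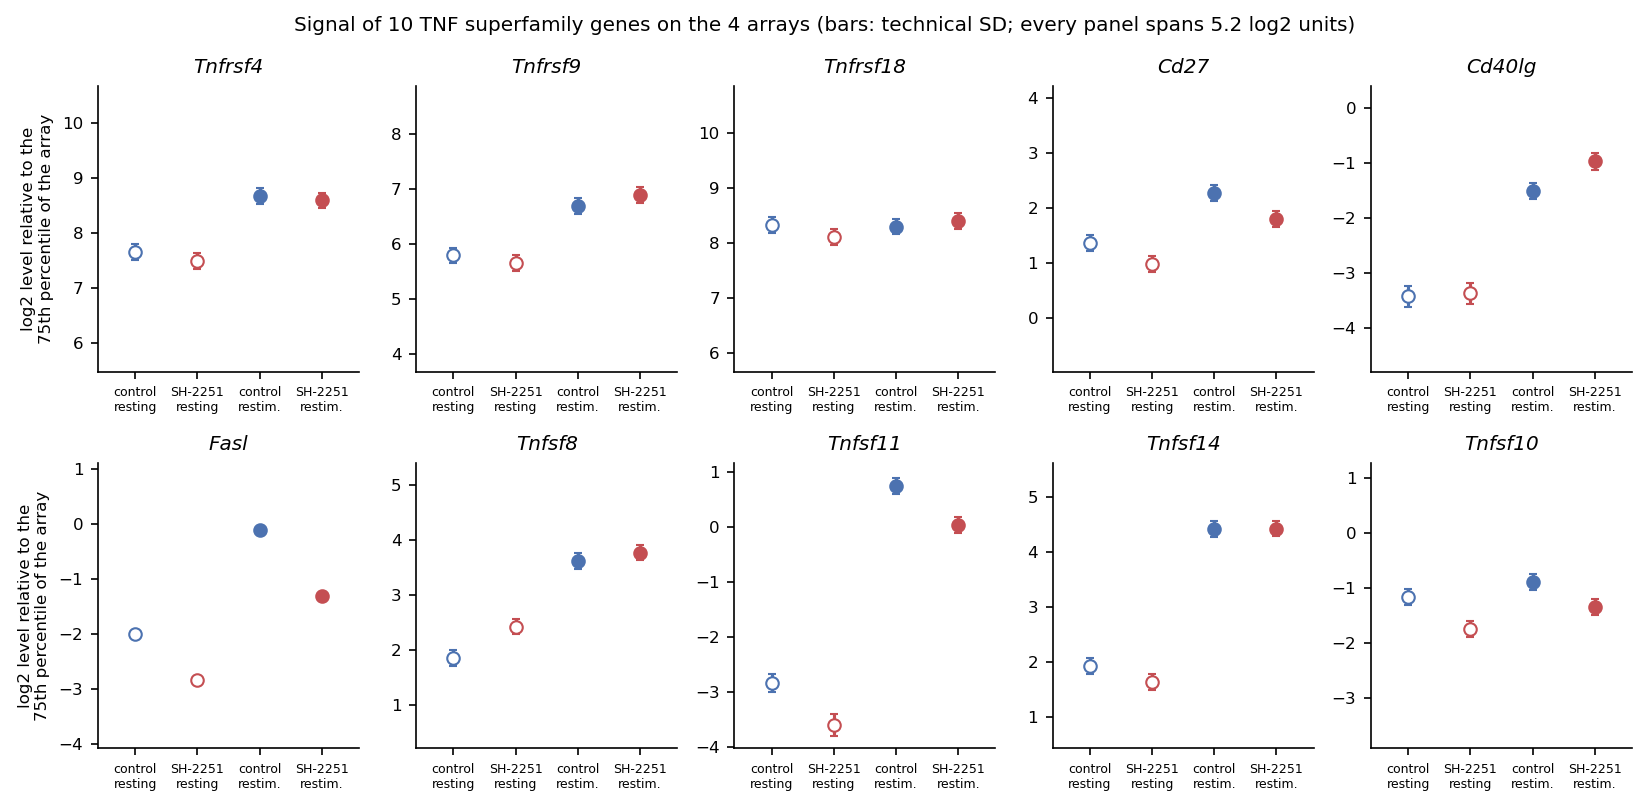
Each panel shows 1 gene, with the log2 level above or below the array's 75th percentile on the vertical axis and the 4 conditions on the horizontal axis (blue, control; red, SH-2251-treated; open, resting; filled, restimulated; bars, technical SD of 1 array). Tnfsf11 spans 4.35 log2 units, between -3.61 and 0.75, while Tnfrsf18 spans 0.30, between 8.11 and 8.41.

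The first question was how the 10 genes respond when Th2 cells meet the TCR signal again. In control cells 6 of the 10 genes were at least 2-fold higher after restimulation (Tnfrsf4, Cd40lg, Fasl, Tnfsf8, Tnfsf11 and Tnfsf14) and none was at least 2-fold lower. Among all 12758 genes compared, 7.24% were at least 2-fold higher and 7.34% at least 2-fold lower. In SH-2251-treated cells Tnfrsf9 joined these, so that 7 of the 10 genes were at least 2-fold higher and none lower, compared with 7.09% and 6.98% of 12613 genes. Under a model-based background correction (normexp), after which 50 intensity units were added, 5 of the 10 genes were higher in treated cells, and over all genes the split in that comparison was 731 higher and 1512 lower, where it had been 894 and 881. The median difference of the 10 genes was 1.39 in control cells and 1.29 in treated cells, against -0.064 and -0.051 over all genes. The ligands accounted for most of this: 5 of 6 were at least 2-fold higher in either kind of cell, with a median of 1.89 (control) and 1.97 (treated). Under normexp the ligands Cd40lg (0.60) and Fasl (0.27) were below 2-fold in treated cells. Fasl was still below it, at 0.99, once spots of uneven background had also been left out.

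Among the ligands, Tnfsf11 had the largest difference of the 10 genes in either culture, although in treated cells Tnfsf14 exceeded it under normexp. It encodes RANKL, which drives the formation of osteoclasts and acts on dendritic cells. Its level was -2.84 in resting control, -3.61 in resting SH-2251-treated, 0.75 in restimulated control and 0.029 in restimulated SH-2251-treated cells. Both restimulated samples lay far above both resting samples, and the treated sample was the lower one of each pair. The difference after restimulation was 3.59 (technical SD 0.220), or 12.1-fold, in control cells. In treated cells it was 3.63 (technical SD 0.250), or 12.4-fold. Its second probe gave 3.88 and 3.63, so both probes showed a large step. Normexp gave the smaller values of 2.79 in control and 1.67 in treated cells, the latter being 2.54 once 12 spots of uneven background had been left out, where Tnfsf14 had 2.92 and 2.73 in treated cells.

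LIGHT, the product of Tnfsf14, binds HVEM and the lymphotoxin-β receptor and costimulates T cells. The levels of Tnfsf14 were 1.92 and 1.63 at rest and 4.42 and 4.42 after restimulation, in control and SH-2251-treated cells respectively. The restimulated samples were 5.65-fold higher in control and 6.95-fold higher in treated cells, with differences of 2.50 and 2.80 (technical SD 0.204 each).

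Cd40lg, the ligand of CD40, stood at -3.42 in resting control and -3.37 in resting treated cells, and at -1.51 in restimulated control and -0.97 in restimulated treated cells. Its level after 4 h was thus above both resting values in either culture. Restimulated cells were 3.76-fold higher in control (difference 1.91, technical SD 0.243) and 5.28-fold higher in treated cells (difference 2.40, technical SD 0.243). These are dim signals: normexp gave 1.19 in control cells and 0.60, below 2-fold, in treated cells, and the latter was 1.41 without the spots of uneven background.

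Fas ligand (Fasl) kills cells that bear Fas and limits the lifetime of activated T cells. Its main probe was spotted 10 times on each array, and the log2 SD of those spots lay between 0.068 and 0.141, so its technical SD is that of a mean over spots. Fasl stood at -1.99 in resting control, -2.85 in resting treated, -0.12 in restimulated control and -1.31 in restimulated treated cells. The restimulated samples were higher in either culture, and the treated sample was lower in either state. Restimulation was accompanied by a 3.68-fold higher level in control (difference 1.88, technical SD 0.067) and a 2.90-fold higher level in treated cells (difference 1.53, technical SD 0.072). The treated difference was 0.27 under normexp and 0.99 without the spots of uneven background, in both cases below 2-fold. The second Fasl probe was dim and was not well above background in resting treated cells, and in control cells it gave a difference of 1.51 (technical SD 0.318).

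Tnfsf8 encodes CD30 ligand, which engages CD30 on activated T and B cells. Its levels were 1.85 and 2.42 at rest and 3.61 and 3.77 after restimulation, in control and treated cells. The restimulated level was 3.40-fold higher in control (difference 1.76, technical SD 0.204) and 2.54-fold higher in treated cells (difference 1.35, technical SD 0.204). Tnfsf10, which encodes the death ligand TRAIL, did not reach 2-fold: its levels were -1.16 and -1.73 at rest and -0.88 and -1.34 after restimulation. The differences of Tnfsf10 were 0.28 (technical SD 0.207) and 0.39 (technical SD 0.210).

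Among the receptors, Tnfrsf4 (OX40) and Tnfrsf18 (GITR) are neighbours on mouse chromosome 4 and behaved differently. Tnfrsf4 rested at 7.65 in control and 7.48 in treated cells, and stood at 8.66 and 8.59 after restimulation. The restimulated levels were 2.02-fold higher in control (difference 1.01, technical SD 0.204) and 2.16-fold higher in treated cells (difference 1.11, technical SD 0.204). Being so close to 2-fold, the difference in control cells fell below it with median centring (0.99) and with quantile normalization (0.84), and that in treated cells with quantile normalization (0.97). Tnfrsf18, a receptor that is also abundant on regulatory T cells, lay between 8.11 and 8.41 in all 4 conditions. Its differences after restimulation were -0.032 in control and 0.30 in treated cells (technical SD 0.204 each).

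Tnfrsf9 encodes 4-1BB, a receptor that appears on T cells after activation. Its brighter probe read 5.79 and 5.65 at rest and 6.70 and 6.89 after restimulation, in control and treated cells. That is 1.87-fold higher in control (difference 0.91, technical SD 0.204) and 2.36-fold higher in treated cells (difference 1.24, technical SD 0.204). The dimmer probe gave smaller differences, 0.45 in control and 0.72 in treated cells, and with the mean of both probes the treated difference was 0.98, so that the 2-fold call in treated cells rests on the choice of probe. CD27, the receptor of Cd70, is carried by naive T cells already. Cd27 levels were 1.37 and 0.98 at rest and 2.27 and 1.81 after restimulation, with differences of 0.90 and 0.83 (technical SD 0.204 each), short of 2-fold.

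**Figure D2:**
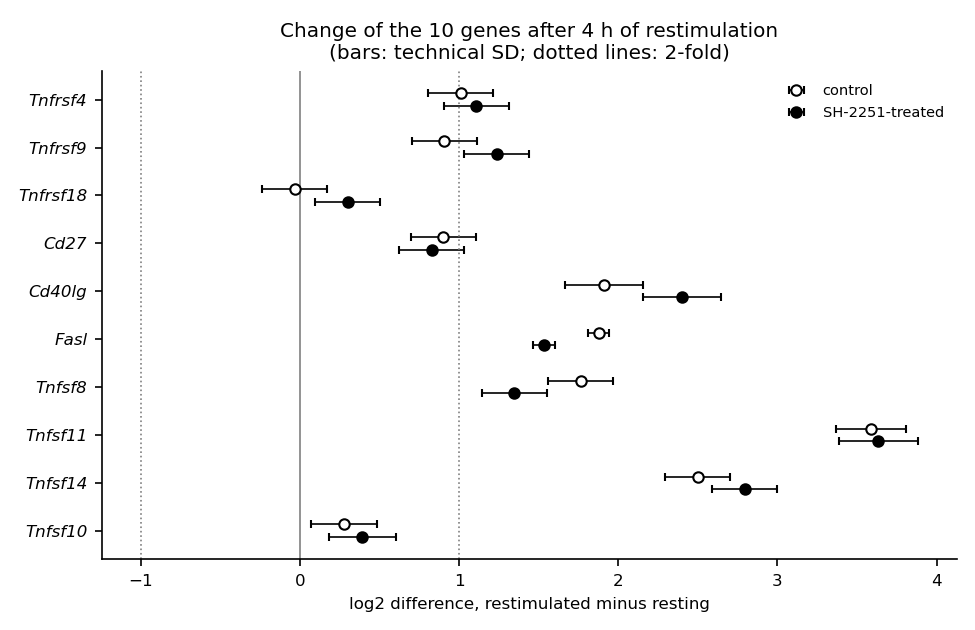
The horizontal axis is the log2 difference between restimulated and resting cells for each of the 10 genes, with control cells as open and SH-2251-treated cells as filled circles; bars are technical SDs, the solid line is 0 and the dotted lines mark 2-fold. The differences of Tnfsf11 are 3.59 and 3.63, those of Tnfsf14 are 2.50 and 2.80, and those of Tnfrsf18 are -0.032 and 0.30.

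The stretch of 250 bases before the gene's start is shown for 3 genes with higher levels after restimulation, because they differ in the letters of sites for the TCR-activated factors AP-1 and NF-κB. Tnfsf11 and Tnfsf14 are the genes with the largest increases, and Tnfrsf9 is the receptor with a second start listed, which is the one shown, because the stretch at its first start holds no match to either motif. The sequences are from RefSeq on assembly GRCm38.p6, which is not the assembly the array was designed on (mm9), and run 5′ to 3′ on the strand of the gene: chr14:78308044-78308293 (minus strand) for Tnfsf11, chr17:57194182-57194431 (minus strand) for Tnfsf14, and chr4:150927749-150927998 (plus strand) for the second start of Tnfrsf9. Capitals mark matches to the AP-1 letters TGANTCA or to an NF-κB site, searched on both strands.
Tnfsf11: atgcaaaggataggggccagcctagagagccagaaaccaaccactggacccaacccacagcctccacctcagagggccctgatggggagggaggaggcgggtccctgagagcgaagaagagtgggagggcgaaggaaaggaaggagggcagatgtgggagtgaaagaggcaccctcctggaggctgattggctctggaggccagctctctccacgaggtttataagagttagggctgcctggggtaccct
Tnfsf14: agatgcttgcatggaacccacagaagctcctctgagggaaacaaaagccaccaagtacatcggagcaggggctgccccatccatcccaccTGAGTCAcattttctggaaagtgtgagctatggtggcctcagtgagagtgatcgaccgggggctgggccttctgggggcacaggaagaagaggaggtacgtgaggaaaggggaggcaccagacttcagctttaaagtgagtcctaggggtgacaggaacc
Tnfrsf9: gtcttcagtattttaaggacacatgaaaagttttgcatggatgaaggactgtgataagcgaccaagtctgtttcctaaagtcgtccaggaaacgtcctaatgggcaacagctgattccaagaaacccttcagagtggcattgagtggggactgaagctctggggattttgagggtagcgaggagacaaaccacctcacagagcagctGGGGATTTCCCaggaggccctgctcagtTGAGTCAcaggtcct
The Tnfsf11 stretch holds no match to either motif, the Tnfsf14 stretch holds 1 AP-1 match that starts 160 bases before the gene's start, and the Tnfrsf9 stretch holds 1 AP-1 match 15 bases before the start and 2 overlapping NF-κB matches that begin 43 and 42 bases before it. Over windows from 250 bases before to 50 bases after a start, the table held 10 windows for 9 of the 10 genes (all but Cd40lg). AP-1 letters were found in 2 of these 10 windows, compared with 7.81% of all 32851 windows, and the NF-κB site in 1, compared with 8.46%. The short NFAT core GGAAA was found in all 10, but 61.3% of all windows hold it too. In the Tnfrsf9 stretch an NFAT core, on the other strand, lies within the NF-κB matches. A match of letters is a description of the sequence only; whether a factor binds there was not measured on these arrays.

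The second question was how SH-2251-treated cells differ from control cells within each state. At rest none of the 10 genes differed by 2-fold, where 5.16% of 12684 genes did, 2.26% being higher and 2.9% lower. After restimulation 1 of the 10 did, Fasl, which was lower. Of 12623 genes 5.43% differed by 2-fold in that state, 2.78% being lower and 2.65% higher. The median difference of the 10 genes was -0.26 at rest and -0.034 after restimulation, compared with -0.055 and -0.063 over all genes. A count near the share of all genes says nothing particular about these 10.

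Fasl had 55.4% of the control signal at rest (difference -0.85, technical SD 0.073) and 43.7% after restimulation (difference -1.20, technical SD 0.065). Its dim second probe gave -1.16 (technical SD 0.283) after restimulation. At rest that second probe was not well above background in treated cells. Under normexp the resting value of the main probe turned to 0.19, and it was -0.53 when spots of uneven background were left out, while the restimulated value was -1.003 in either case. CD8 T and NK cells also make Fas ligand. Their marker sums are given above, and 3 of 6 markers on the array were well above background on all 4 arrays. With SH-2251, Cd8a differed by 1.45 at rest and 0.97 after restimulation, Klrd1 by 0.056 and 0.60, and Nkg7, the brightest of them, by -0.069 and -0.26. Eomes was well above background in treated cells only. It was higher there by at least 0.61 (technical SD 1.33) at rest and at least 0.38 (technical SD 0.73) after restimulation. The part of CD8 T and NK cells in the difference of Fasl was not tested.

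Tnfsf11 had 59.0% of the control signal at rest (difference -0.76, technical SD 0.263) and 60.8% after restimulation (difference -0.72, technical SD 0.204). The second probe gave -0.49 (technical SD 0.323) and -0.74 (technical SD 0.205). Here too the resting value changed sign under normexp, to 0.45, and returned to -0.42 without the spots of uneven background. For Tnfsf10 the differences were -0.57 (technical SD 0.209) and -0.46 (technical SD 0.207), and for Cd27 they were -0.39 (technical SD 0.204) and -0.46 (technical SD 0.204). These 4 genes were lower with SH-2251 by more than 1 technical SD in both states, a rule set after the values had been seen, and 17.4% of the 11518 genes well above background on all 4 arrays met it as well.

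None of the 10 genes was higher by that margin in both states, but the share of all genes that was higher was not computed. Tnfsf8 was 1.49-fold higher with SH-2251 at rest (difference 0.58, technical SD 0.204) but differed by 0.16 after restimulation. Cd40lg differed by 0.053 (technical SD 0.273) at rest and was 1.46-fold higher after restimulation (difference 0.54, technical SD 0.209), a value that was 0.27 under normexp. Tnfsf14 differed by -0.29 at rest and by 0.0049 after restimulation. The receptors Tnfrsf4, Tnfrsf9 and Tnfrsf18 differed by -0.17, -0.14 and -0.23 at rest and by -0.073, 0.20 and 0.11 after restimulation, each beside a technical SD of 0.204.

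**Figure D3:**
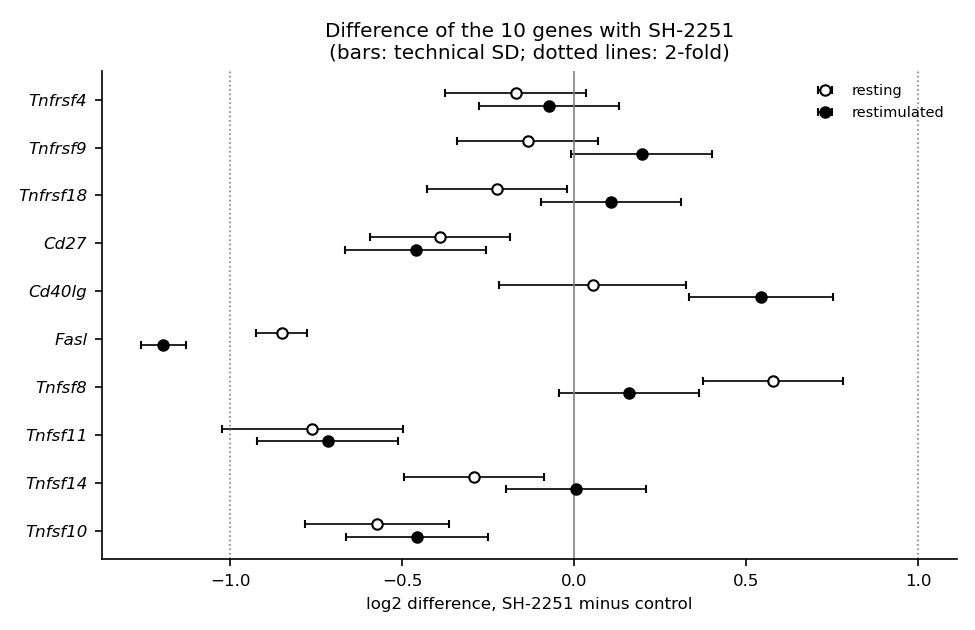
The horizontal axis is the log2 difference between SH-2251-treated and control cells for each of the 10 genes, with resting cells as open and restimulated cells as filled circles; bars are technical SDs and dotted lines mark 2-fold. Fasl lies at -0.85 and -1.20, and Tnfsf11, Tnfsf10 and Cd27 lie below 0 in both states.

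How far the response to restimulation itself differed between treated and control cells is given by the difference between the 2 SH-2251 differences. It reached 2-fold for none of the 10 genes and for 1.22% of 11518 genes. The values ran from -0.42 (Tnfsf8, technical SD 0.289) to 0.49 (Cd40lg, technical SD 0.344), and Fasl had -0.34 (technical SD 0.098). For Tnfsf11 it was 0.044 (technical SD 0.333): by its brighter probe the treated cells began lower and stayed lower by about the same factor. The second probe differed by -0.49 at rest and -0.74 after restimulation. Under normexp the Tnfsf11 values were 0.45 and -0.67, and without the spots of uneven background -0.42 and -0.67. Under normexp with all spots, 2 of the 10 genes, Fasl (0.19 at rest and -1.003 after restimulation) and Tnfsf11, reached 2-fold between states. Over all genes 5.57% of 11511 did so in that setting, 46 with positive and 595 with negative values. Without the spots of uneven background 0 of the 10 genes and 0.539% of 11507 genes did. Differences between states could not be tested on single arrays.

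A receptor or ligand works only with its partner, so a list of 14 binding partners was examined in the same cells. Of these, 9 were measured on both sides of both restimulation comparisons. In control cells 5 of the 10 partners compared were at least 2-fold higher after restimulation, and in treated cells 6 of 12, with none at least 2-fold lower. Over all genes 7.24% were at least 2-fold higher and 7.34% lower in control cells, and 7.09% and 6.98% in treated cells. The medians of the partners were 0.92 and 1.04, compared with -0.064 and -0.051 over all genes. Tnfsf9, the ligand of 4-1BB, stood at -2.90 and -2.30 at rest and at -0.80 and 0.44 after restimulation, which is 4.27-fold higher in control and 6.68-fold higher in treated cells. Cd40 was 3.68-fold and 4.23-fold higher and Btla (an inhibitory receptor that binds HVEM) 3.11-fold and 2.56-fold. Tnfrsf10b, a TRAIL receptor, had differences of 1.38 in control and 1.67 in treated cells. In treated cells Fas and the dim Tnfsf4 were at least 2-fold higher as well. Under normexp Cd40, Btla and Tnfsf4 in treated cells and Cd70 in control cells were below 2-fold, at 0.25, 0.86, -0.51 and 0.42, and Tnfsf4 was at 0.52 without the spots of uneven background. Cd70 was 2.08-fold higher in control cells, and differed by 0.32 (technical SD 0.355) in treated cells. The receptors of LIGHT, Tnfrsf14 (HVEM) and Ltbr, lay within 0.36 of their resting levels in either culture.

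With SH-2251, 3 of 11 partners were at least 2-fold higher after restimulation and none was at least 2-fold lower. Over all 12623 genes compared in that state, 2.65% were at least 2-fold higher and 2.78% lower. Fas itself stood at 0.91 in resting control, 1.49 in resting treated, 1.68 in restimulated control and 2.77 in restimulated treated cells. It was thus higher with SH-2251 by 0.58 at rest and by 1.08 after restimulation, or 2.12-fold (technical SD 0.065 each, over 10 spots), where its ligand was lower. With the mean of all Fas probes the restimulated difference was 0.80, below 2-fold. Tnfsf9 was 2.36-fold higher with SH-2251 after restimulation (difference 1.24, technical SD 0.205) and 1.51-fold higher at rest. Tnfsf4, the ligand of OX40, was dim. It was not well above background in restimulated control cells, with a measured level of -5.20 there and -3.11 in restimulated treated cells, and so was at least 2.92-fold higher in the latter. Under normexp, with or without the spots of uneven background, that difference was 0.57, below 2-fold. Tnfrsf8 (CD30), the receptor of Tnfsf8, differed by -0.80 (technical SD 0.204) at rest and by -0.44 after restimulation. Tnfsf18, the ligand of GITR, and Cd160 were not well above background on any array. The RANKL receptor Tnfrsf11a passed that limit in resting treated cells only, and its decoy receptor Tnfrsf11b in restimulated treated cells only.

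Of 8 other ligands of the superfamily, 4 could be compared. Tnf was 6.02-fold higher after restimulation in control and 4.86-fold higher in treated cells. Lta (lymphotoxin-α) and Tnfsf13b (BAFF, a survival factor of B cells) went the other way in control cells, with differences of -1.06 (technical SD 0.070) and -1.36 (technical SD 0.207). In treated cells they were lower as well, by less than 2-fold, at -0.59 (technical SD 0.070) and -0.98 (technical SD 0.205). With SH-2251 both were higher in restimulated cells, Lta 2.07-fold and Tnfsf13b 2.27-fold. The Tnfsf13b difference was below 2-fold under normexp (0.88) with or without the spots of uneven background. Ltb differed after restimulation by -0.75 in control and -0.12 in treated cells, and with SH-2251 by -0.010 at rest and 0.62 after restimulation. Among 16 other receptors, 1 of 12 compared was at least 2-fold higher after restimulation in either culture (Tnfrsf12a) and 1 was at least 2-fold lower (Tnfrsf26, at -0.89 in treated cells under normexp without the spots of uneven background), and none differed by 2-fold with SH-2251 in either state. Over all genes 14.6% differed by 2-fold after restimulation in control and 14.1% in treated cells. With SH-2251 the shares were 5.16% at rest and 5.43% after restimulation.

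Downstream of the receptors, all 16 listed signalling genes were measured in every comparison. After restimulation 7 were at least 2-fold higher in control cells and 7 in treated cells, and none was at least 2-fold lower. Over all genes 7.24% were at least 2-fold higher and 7.34% lower in control cells, and 7.09% and 6.98% in treated cells. Traf1, an adaptor that binds several of the receptors above, was higher by 2.44 in control and 2.65 in treated cells. Nfkb2 and Relb, which form the dimer of the alternative NF-κB pathway, were higher by 2.52 and 2.29 in control and by 2.82 and 2.22 in treated cells. The others were Traf3, Traf4, Birc3 and Cflar, the last of which inhibits caspase-8 at death receptors. Traf4 in control cells was below 2-fold with quantile normalization (0.98) and with the mean of all its probes (0.83). Fadd and Casp8, which carry the death signal of Fas, had differences of -0.69 and -0.27 in control and -0.64 and -0.35 in treated cells. With SH-2251 none of the 16 differed by 2-fold in either state, where 5.16% of all genes did at rest and 5.43% after restimulation. The medians of the 16 were -0.089 at rest and 0.15 after restimulation, compared with -0.055 and -0.063 over all genes.

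**Figure D4:**
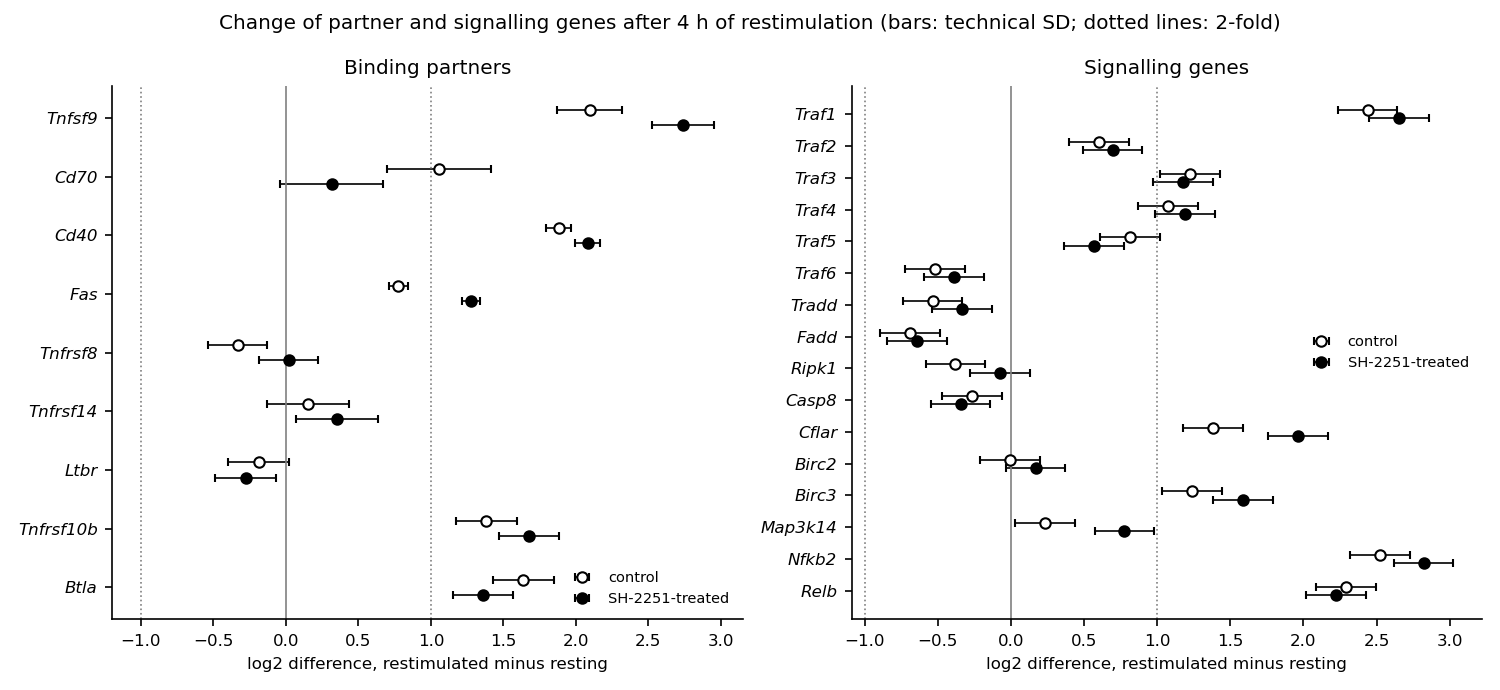
The horizontal axis is the log2 difference between restimulated and resting cells, for partner genes (left) and signalling genes (right) measured on all 4 arrays; open circles are control and filled circles SH-2251-treated cells, bars are technical SDs and dotted lines mark 2-fold. Tnfsf9 lies at 2.09 and 2.74, and Traf1, Nfkb2 and Relb lie above 2 in both cultures.

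Genes whose levels followed the same course over the 4 arrays were sought for the 8 members that spanned at least 1 log2 unit, among 11517 other genes, by the Euclidean distance between levels centred on their own mean. For Tnfsf14 the nearest were Pdcd1lg2, which encodes the checkpoint ligand PD-L2, at a distance of 0.118 log2 units, and Smim3 at 0.119. For Fasl they were Bace2 (0.133) and Sik1 (0.242), and for Tnfsf11 Ptpn5 (0.367) and Phlda1 (0.446). The nearest genes to Cd40lg were Adora2b (0.156) and Jak2 (0.172), and to Tnfsf8 Trib2 and Camk1d (0.131 each). Cd27 lay nearest to Rgs1 (0.042) and Pus7l (0.064), and Tnfrsf9 to Wasl (0.050) and Foxo1 (0.055). With 4 arrays and so many genes some close courses are found for almost any gene, so these distances are a description of the arrays only.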

How the data were processed

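Total RNA was labelled with Cy3 and hybridised to the Agilent Whole Mouse 44K array, 1 array for each of 4 conditions taken from the sample labels. The authors deposited scanner files of Feature Extraction 10.7.3.1, whose intensities were already corrected for background and spatial trend, and a table of log2 values normalized with the Subio Platform. Between 99.6% and 99.7% of its values on each array lay within 0.01 of the levels computed here.

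Here the 75th percentile of each array was subtracted from its log2 intensities. Control and outlier spots (77 to 106 per array) were left out, spots of a probe were averaged, no sample spot was saturated, and 56.0% to 56.7% of probes were well above background. Of 41174 probes, 27198 (66.1%) were named through RefSeq accessions (table of GRCm38.p6), and the probe with the highest mean level stood for a gene. A gene entered a comparison if well above background on at least 1 of its 2 arrays; where 1 side was too dim, its own level or the lowest level well above background on that array, whichever was higher, gave a bound. "Called" means 2-fold, with no test. The 10 genes and all lists were chosen with earlier results of these data known. Named are the 10 genes, members of the partner, ligand, receptor and signalling lists at least 2-fold apart, direct partners, and the 2 genes of most similar course; those of Tnfrsf4 are not reported here. Cell type marker lists are given by counts and sums, with a few of their genes. The procedure was tested on simulated data. Alternatives were other scalings, background corrections, filters, probe rules and fold thresholds. Python 3.11.15, numpy 2.4.6, pandas 2.3.3, matplotlib 3.10.9, R 4.3.3 and limma 3.58.1 were used.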

Additional observations from a re-analysis of the deposited data

Results flagged for a closer look

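Tnfrsf12a, the receptor of the cytokine TWEAK, differed in opposite directions with SH-2251 in the 2 states, by -0.35 (technical SD 0.206) in resting and by 0.60 (technical SD 0.204) in restimulated cells. Over the alternatives these values lay between -0.36 and -0.22 and between 0.52 and 0.64. The difference between the states was not tested.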

How the results depend on the processing

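Each condition had 1 array, so no array could be left out. No paired analysis was possible because no group has a second sample. Signal over background limits the dim genes, such as Cd40lg, Tnfsf4 and the second Fasl probe. Of the values of single genes recomputed under 9 alternatives, 631 moved by less than their technical SD, 87 moved by more and 1 changed sign after a 2-fold call: Tnfsf4 after restimulation of treated cells, from 1.45 to -0.51 under normexp. The normexp fit on the resting SH-2251 array was distorted: its fitted mean background was -151.7, compared with 7.42 without 12 spots of uneven background. Counts below are of genes at least 2-fold apart in the order SH-2251 resting, SH-2251 restimulated, restimulation in control, restimulation in treated cells and difference between states, which were 655, 685, 1861, 1775 and 140 for all genes and 0, 1, 6, 7 and 0 for the 10 genes. Under normexp, 310 (SH-2251 restimulated), 1072 (restimulation in control) and 641 (difference between states) genes were apart, as were 2 of the 10 genes between states, and at rest 694 were higher and 162 lower with SH-2251, compared with 287 and 368; for restimulation of treated cells 731 were higher and 1512 lower, compared with 894 and 881, and between states 46 and 595, compared with 85 and 55. Without spots of uneven background the counts were 311, 308, 1069, 1103 and 62. With no filter they were 1421 and 1628 with SH-2251, 2729 for restimulation of treated cells and 1706 between states. A 1.5-fold threshold gave 1721, 1773, 4290, 4256 and 625 genes, and 2 of the 10 genes with SH-2251 in either state. A 3-fold threshold gave 245, 246, 577, 541 and 37 genes, and among the 10 genes 0 with SH-2251 after restimulation and 3 for restimulation of treated cells. The other totals were within 1.5 times their value under the alternatives run; the cause of the changes was not tested, except that filters and thresholds alter which genes can be counted.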
